A study of Mus musculus with 2 samples.

Results

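Genes of the actin and microtubule cytoskeleton and of the motor proteins that run on it were compared between mouse EB cells at day 4 and mouse ES cells at day 0. These labels usually stand for embryoid bodies, the aggregates in which embryonic stem cells differentiate, and for the embryonic stem cells themselves. Total RNA of 1 sample per group was labelled with biotin and hybridised to 1 bead array each, both of the same chip design. No strain, cell line or culture treatment is named in the sources used here. With 1 sample per group there was no test, and every difference describes these 2 arrays. Fewer cells of a type and less RNA per cell cannot be told apart in such samples, nor can culture, array position and group.

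Members were chosen by gene symbol, from the stems of the actin, myosin, tropomyosin, tubulin, kinesin, dynein, dynactin and related names. The stems took 94 genes with 117 probes, out of 8102 genes with 9796 probes that could be named on an array of 46643 probes. The stems read symbols and no measured value, but they were set with earlier results of these data known. Of the 94 genes, 76 were detected in at least 1 sample and 18 were in neither, and 62 exceeded the signal floor of 230.0 in at least 1 array. Differences are log2 of EB minus log2 of ES, and a detected gene counted as higher or lower in EB when its difference reached 1 in size, the 2-fold size rule. The stems also admitted 3 names outside the cytoskeleton. Of these Cflar, a regulator of cell death, was not detected, while Desi2 had a log2 difference of -0.30 and Map1lc3b, a protein of autophagosomes, one of 0.31. Some well known genes that the stems would take, among them Vim, Des, Actc1, Tnnt2 and Myh9, had no probe among the 9796 named. They were not analysed here.

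Actin filaments and microtubules are polymers that a cell builds and takes apart continually. Actin monomers are started into filaments by nucleators, capped, bundled and severed by binding proteins, and pulled on by myosins. Microtubules are built of alpha and beta tubulin, and kinesins and dynein carry cargo along them or move them within the mitotic spindle. As stem cells leave pluripotency they change shape and contacts, and later muscle and nerve lineages turn to isoforms of their own.

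The cytoskeletal genes as a whole lay close to the rest of the array, and a few members stood far from 0. Of the 76 detected members 3 passed the 2-fold size rule upward and 3 downward, 7.89% in all. Among all 5183 detected named genes 6.77% passed it, 2.78% higher and 3.99% lower, so the members' share was near the background. The members higher in EB were Myl7, Cobll1 and Mapre2, and those lower were Cobl, Tubb2b and Actn3. The median log2 difference was 0.0012 over the members and 0.0015 over all detected named genes. Of the detected members 38 were positive and 38 negative, against 50.2% positive over all detected named genes. Detection asked for a lower signal in ES than in EB, which lets in dim genes through their ES signal. Of the 62 members above the floor in at least 1 array, 34 were positive and 28 negative. Their median was 0.04, where 55.3% of all such named genes were positive and their median was 0.06. At a 1.5-fold limit 6 members were higher and 13 lower (7.89% and 17.1%), against 9.24% and 9.09% of all detected named genes. These counts take log2 differences without regard to the floor. The lower members include Kifc2, Kifc3 and Myh7, with EB signals under the floor. Against the floor they were lower by at least 1.21-fold, 1.31-fold and 1.36-fold only. Acta2, Tuba4a and Myo10, also among the lower ones, had EB signals of 242, 241 and 260, next to the floor.

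**Figure D1:**
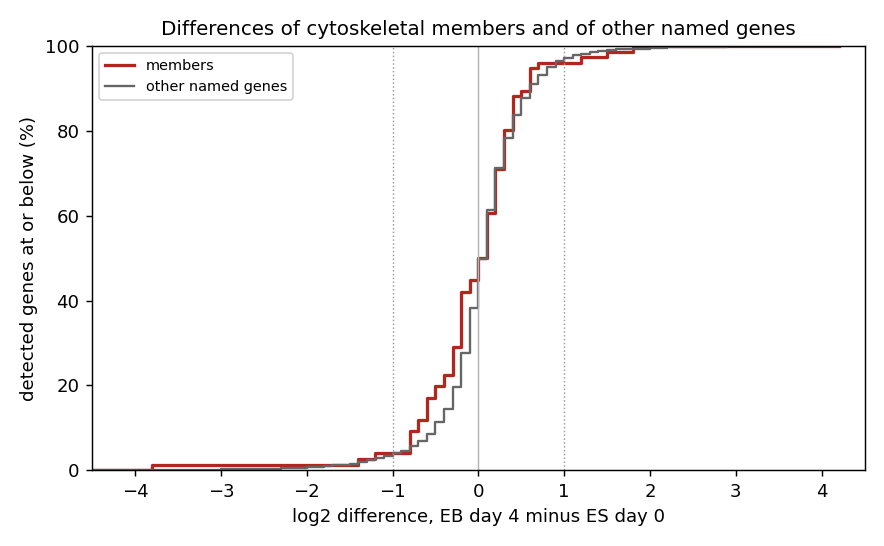
Cumulative share of detected genes (in percent, y axis) at or below each log2 difference, EB minus ES (x axis, read in steps of 0.1), for the 76 members and the 5107 other named genes. Dotted lines mark the 2-fold size rule. The curves cross 0 near the middle, and between -0.8 and -0.2 the members' curve lies above that of the other genes.

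Of the members, the actin nucleator Cobl differed most. Cobl binds actin monomers through repeated motifs and starts new filaments. Its probe (identifier scl0012808.2_292-S) had a signal of 247 ± 15.6 in EB and 3557 ± 160 in ES (each ± here and below is a bead-level standard error, which covers beads within an array only). The log2 difference was -3.85 ± 0.11, which puts Cobl 14.4-fold lower in EB. The EB signal lay just over the floor, the level that a probe must reach to count as above background. No background was subtracted, which draws a ratio against so dim a signal toward 0. The series value table, which is the authors' processed version of the same arrays, gave -5.71, and normexp background correction gave -4.23. Cobl had 1 probe among the named ones, so no second such probe could check it. Its paralogue Cobll1 went the other way, with a signal of 629 ± 24.2 in EB and 232 ± 13.7 in ES, a log2 difference of 1.44 ± 0.10. The ES signal of Cobll1 was barely above the floor, and its log2 difference was 3.13 in the value table.

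**Figure D2:**
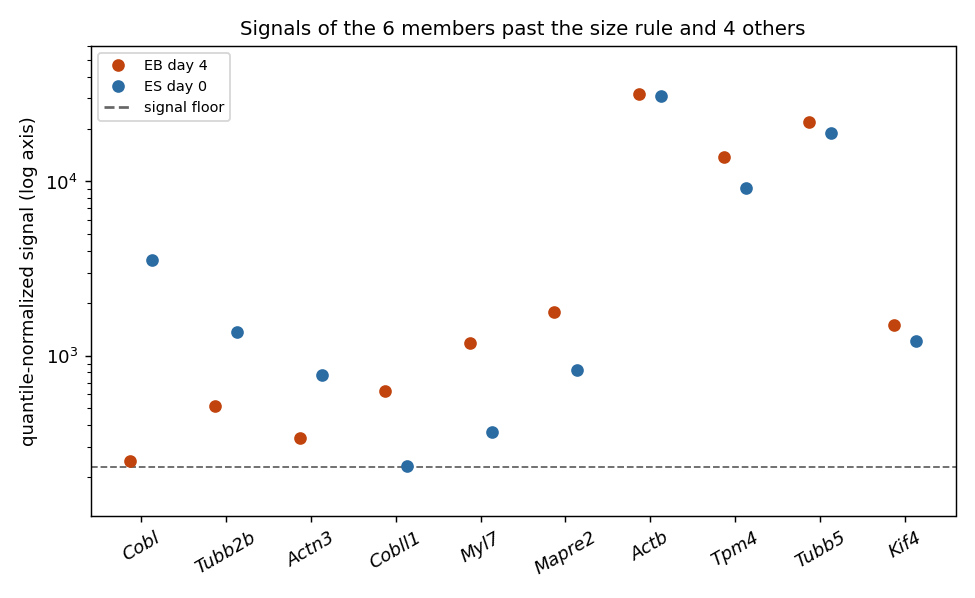
Quantile-normalized signal (log y axis) in EB at day 4 (left point of each pair) and ES at day 0 (right point) for the 6 members past the size rule, and for Actb, Tpm4, Tubb5 and Kif4. Bead-level standard errors are smaller than the points, the dashed line is the signal floor of 230.0, and heights should not be compared between genes. Cobl in EB (247) and Cobll1 in ES (232) sit next to the floor, while the pairs of Actb, Tubb5 and Kif4 nearly coincide.

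The promoters of Cobl and of Myl7, an atrial myosin light chain described further on, are shown because these members had the largest differences in each direction and hold different motifs. They are RefSeq sequences of GRCm38.p6, from 250 bases before to 50 bases after an annotated start. Capitals mark the CArG box, which serum response factor binds in many actin and muscle genes, and the GC box GGGCGG, which factors of the Sp and Klf families bind, each searched on both strands. RefSeq gives Cobl 2 starts, and the array cannot tell which was used.
Cobl upstream start, chr11:12464911-12465210, minus strand: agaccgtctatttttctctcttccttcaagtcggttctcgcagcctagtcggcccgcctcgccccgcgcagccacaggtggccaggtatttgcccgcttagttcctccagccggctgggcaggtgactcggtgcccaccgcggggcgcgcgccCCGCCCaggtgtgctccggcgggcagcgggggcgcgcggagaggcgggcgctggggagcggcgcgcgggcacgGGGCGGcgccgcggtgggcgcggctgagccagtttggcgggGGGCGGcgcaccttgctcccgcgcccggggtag
Cobl downstream start, chr11:12412091-12412390, minus strand: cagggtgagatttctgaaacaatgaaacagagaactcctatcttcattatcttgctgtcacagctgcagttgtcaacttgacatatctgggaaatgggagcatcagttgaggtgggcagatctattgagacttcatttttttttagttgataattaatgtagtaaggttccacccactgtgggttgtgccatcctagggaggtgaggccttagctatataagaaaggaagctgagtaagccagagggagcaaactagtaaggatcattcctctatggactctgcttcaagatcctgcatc
Myl7, chr11:5898733-5899032, minus strand: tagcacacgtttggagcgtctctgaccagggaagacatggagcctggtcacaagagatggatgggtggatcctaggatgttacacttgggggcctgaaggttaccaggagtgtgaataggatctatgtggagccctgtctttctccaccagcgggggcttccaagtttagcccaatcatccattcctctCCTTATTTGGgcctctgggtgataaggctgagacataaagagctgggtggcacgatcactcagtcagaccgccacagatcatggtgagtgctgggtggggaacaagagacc

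The upstream promoter of Cobl held 3 GC boxes and no CArG box, and its downstream promoter held neither. The promoter of Myl7 held 1 CArG box, 61 bases before the start, and no GC box. Promoter sequences were found for 76 of the 94 members, 89 promoters in all. A CArG box stood in 5 of the 89 (5.62%), those of Myl7, Actg1, Arpc4, Myl6 and Myo1e, against 1.63% of all 32851 promoters. Of these genes Myl7 had a log2 difference of 1.71, Arpc4 0.52 and Myl6 0.19, while Actg1 and Myo1e were under the floor in both arrays and gave no direction. The GC box was in 65.2% of the members' promoters and 35.7% of all promoters. The 32851 promoters were not limited to genes named or detected on the array. They are thus another background than the one used for the differences, and the 2 gaps cannot be called traits of the members. A match describes the letters in this window and is not evidence of binding.

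No actin gene passed the size rule. Actb, the main cytoplasmic actin, had a signal of 31874 ± 895 in EB and 31044 ± 844 in ES, a log2 difference of 0.04 that is smaller than its bead-level standard error of 0.06. A second probe for Actb, named by its RefSeq accession and outside the members, gave -0.08. The 2 signs differ, and both values are close to 0. The probe for Actg1, the other cytoplasmic actin, read 187 in both arrays, under the floor, so it shows nothing of that gene. Acta2, the smooth muscle actin, had 242 ± 16.8 in EB, next to the floor, and 419 ± 16.7 in ES, a log2 difference of -0.79. It did not pass the size rule, but the value table put it at -1.98.

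None of the 4 measured Arpc subunits of the complex that branches actin filaments passed the size rule, and they were split in direction. Arpc1b had a log2 difference of -0.51 and Arpc3 one of -0.27, while Arpc4 had 0.52 and Arpc5 0.38. Bead-level standard errors ran from 0.07 to 0.10, so the negative and the positive subunits lay apart by more than the error within an array. The probe for Actr3, another subunit, was not above background in either array. Formins elongate unbranched filaments. Diaph1 had 352 ± 15.7 in EB and 630 ± 28.4 in ES, a log2 difference of -0.84, and Diaph3 had -0.35, while Diaph2 was under the floor in both arrays.

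Of 4 detected genes for proteins that bind, cap or sever actin, 1 passed the size rule, against 6.77% of all detected named genes. A class this small cannot be told from that share. This was Actn3, the alpha-actinin of fast skeletal muscle, with 337 ± 13.2 in EB and 776 ± 28.7 in ES, a log2 difference of -1.20 ± 0.08. No gene of the skeletal muscle marker list was measured, so no other marker of that tissue stands beside it. Cfl1, the non-muscle cofilin that severs filaments, had a log2 difference of -0.72, with 730 ± 29.8 in EB and 1206 ± 48.7 in ES. Flnc, a filamin, had -0.21, and Tmsb10, a thymosin that binds actin monomers, had 0.13, with 280 in EB and 256 in ES, both near the floor.

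Tropomyosins lie along actin filaments and set which proteins may bind. All 3 probes for Tpm4 were brighter in EB, with log2 differences of 0.59, 0.52 and 0.71. The brightest read 13782 ± 460 in EB and 9166 ± 297 in ES. Both probes for Tpm3 above the floor gave smaller positive values, 0.31 and 0.28. Neither gene passed the 2-fold rule, yet the probes of each agree closely in sign and size.

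Among the myosins the atrial light chain Myl7 was the one past the size rule. It had 1185 ± 46.1 in EB and 362 ± 20.7 in ES, 3.28-fold higher, and its log2 difference was 1.71 ± 0.10. Of the 12 genes on the cardiomyocyte marker list 4 were measured, and Myh6, the alpha heavy chain of cardiac myosin, and Ryr2, a calcium release channel, were under the floor in both arrays, so that neither has a direction. Myh7, the beta heavy chain of heart and slow muscle, was under the floor in EB (198) and had 314 in ES. The summed signal of the 4 was 1718 in EB and 1069 in ES, which is Myl7 plus probes near or under the floor.

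The non-muscle light chains differed less. Myl12b, a regulatory light chain, had a log2 difference of -0.31, Myl6, the essential light chain, 0.19, and Myl12a 0.04. Myh10, the heavy chain of non-muscle myosin of the B type, had 2314 ± 67.0 in EB and 2146 ± 69.9 in ES, a log2 difference of 0.11. The 4 measured genes of non-muscle myosin thus ran from -0.31 to 0.19, and none passed the size rule.

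Of 9 unconventional myosins 7 were detected and none passed the size rule. Of the 5 above the floor in at least 1 array 3 had negative and 2 positive differences, where 55.3% of all such named genes were positive. Myo5c, a motor of secretory vesicles in epithelia, had 305 ± 17.6 in EB and 568 ± 24.3 in ES, a log2 difference of -0.90, and passed the rule with normexp background (-1.06). Myo10, which moves to the tips of filopodia, had 260 ± 14.3 in EB and 457 ± 29.7 in ES, a log2 difference of -0.81. Myo9b had -0.21. For Myo9a, its relative, the probe standing for the gene gave 0.0032 and a second probe 0.36. The epithelial marker list was mixed. Of its 4 measured genes 2 were lower in EB by the size rule, against 3.99% of all detected named genes. These were Cldn4 (502 in EB and 3764 in ES) and Krt19 (320 in EB and 1116 in ES). The brightest genes, Krt8 and Krt18, did not pass the size rule, with log2 differences of 0.05 and -0.38. Summed signals were 26290 in EB and 31570 in ES, most of which is Krt8 and Krt18. The part of epithelial cells in the myosin values was not tested.

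**Figure D3:**
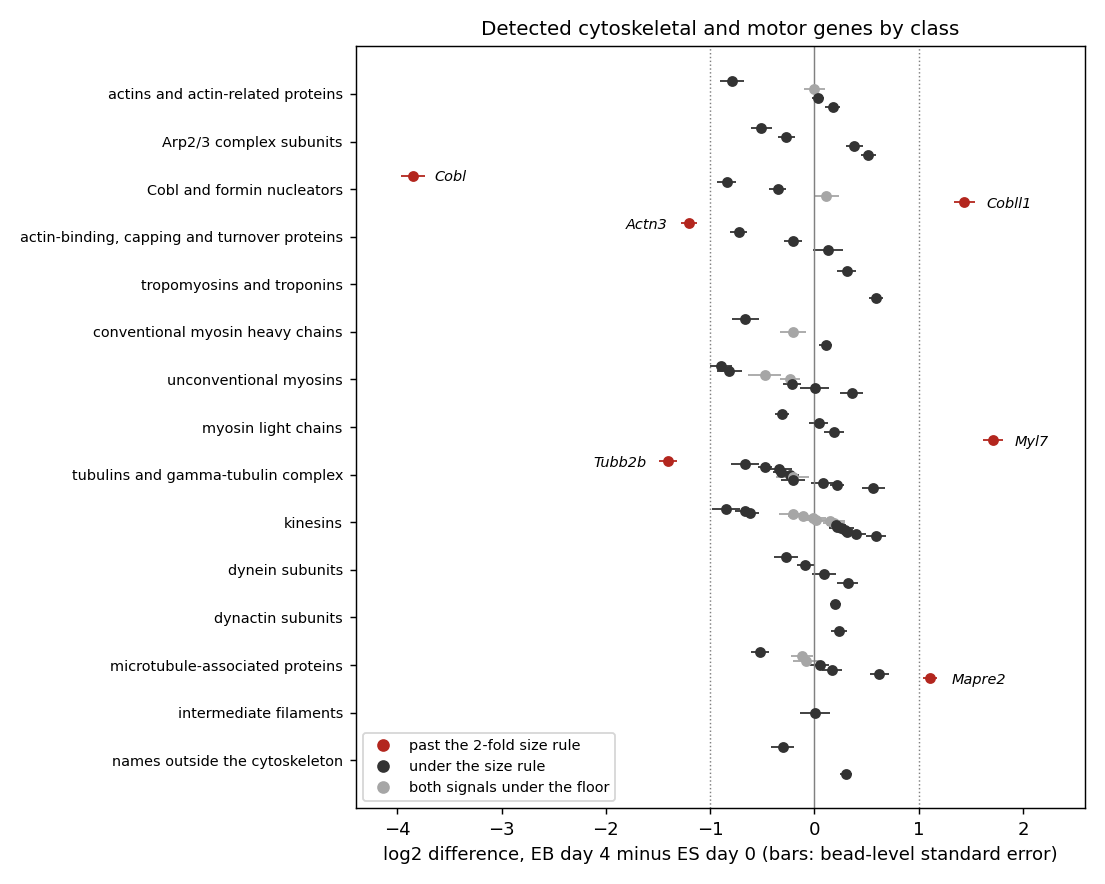
Log2 difference, EB minus ES (x axis), of each detected member by class, 1 point per gene with its bead-level standard error. Red points passed the 2-fold size rule (dotted lines) and grey points had both signals under the floor. Most classes straddle 0, the 2 tropomyosins lie to its right, and Cobl at -3.85 and Myl7 at 1.71 lie at the ends.

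Of 11 detected genes of tubulins and of the gamma-tubulin complex 1 passed the size rule, against 6.77% of all detected named genes. Of the 10 above the floor in at least 1 array 7 had negative and 3 positive differences, with a median of -0.28, where 55.3% of all such named genes were positive and their median was 0.06. Tubb2b, a beta tubulin prominent in developing neurons, had 516 ± 23.8 in EB and 1364 ± 54.4 in ES, 2.64-fold lower (log2 difference of -1.40 ± 0.09). Neither array lifted a second probe for Tubb2b over the floor, so it could show nothing. Tubb5 had 22030 ± 804 in EB and 18911 ± 610 in ES, a log2 difference of 0.22, and Tubb4b had -0.32. Tubb3, a neuronal isotype, was under the floor in EB (229) and had 264 in ES.

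Alpha tubulins were split. Tuba1a had 1438 ± 71.8 in EB and 972 ± 58.0 in ES, a log2 difference of 0.57, and Tuba1c had 9973 ± 282 in EB and 13848 ± 471 in ES, a log2 difference of -0.47. Of the 5 alpha tubulins above the floor Tuba1a had a positive difference and the other 4 negative ones, while neither array lifted Tuba8 over the floor, so that it has no direction. Tuba3a, known from testis, had 3 probes that disagreed in size. The brightest gave -0.33, while the others gave -1.70 (203 in EB, under the floor, and 657 in ES) and -1.73 (148 in EB, under the floor, and 491 in ES). Those 2 probes put Tuba3a at least 2.86-fold and at least 2.14-fold lower. Tubulin genes are alike in sequence, and Tuba3a and Tuba3b are near-identical copies, so signal on these probes cannot be given to 1 gene with certainty.

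Of 21 measured kinesins 16 were detected and none passed the 2-fold rule. Genes named Kif and genes named Kifc are given apart, a split chosen after the values were seen. All 7 Kif genes above the floor in at least 1 array had positive differences, with a median of 0.29, where 55.3% of all such named genes were positive. Kif3a, a motor of cilia, had log2 differences of 0.40 and 0.39 by its 2 probes, with 1853 ± 97.8 in EB and 1403 ± 55.2 in ES for the brighter. Kif4, which works on mitotic chromosomes, had 0.29 (1494 ± 55.4 in EB and 1219 ± 48.4 in ES) and Kif18b, a mitotic kinesin that acts at microtubule ends, 0.22. Kif1a, a carrier of synaptic vesicle precursors, had the largest of them, 0.59, and its value table difference was 1.29.

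All 3 detected Kifc genes, whose motor sits at the carboxyl end of the protein and walks the opposite way to most kinesins, had negative differences, and Kifc5b alone was measured past 1.5-fold in signals above the floor. Kifc5b had 1016 ± 53.2 in EB and 1616 ± 60.5 in ES, a log2 difference of -0.67, and its second probe gave -0.41. It belongs to a group of near-identical copies, which its probes may not separate. Kifc2 (154 in EB and 278 in ES) and Kifc3 (196 in EB and 300 in ES) lay under the floor in the EB array, and were lower by at least 1.21-fold and at least 1.31-fold.

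Dynein and dynactin, which together move cargo toward the cell centre, stayed close to 0. None of 4 detected dynein genes passed the size rule, from -0.27 for the heavy chain Dync1h1 to 0.32 for the light chain Dynll1. The dynactin genes Dctn2 and Dctn4 had 0.20 and 0.24, and Actr10, an actin-related subunit of dynactin, had 0.18. A dimmer second probe for Dctn2 gave -0.23, with a signal under the floor in EB.

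Of 7 detected genes for proteins that bind microtubules 1 passed the size rule, against 6.77% of all detected named genes, a share that so small a class cannot be told from. Mapre2, of the family that binds growing microtubule ends, had 1773 ± 64.7 in EB and 824 ± 24.4 in ES, 2.15-fold higher (log2 difference of 1.10 ± 0.07). Its second probe gave 0.48, so the mean over both (0.79) did not pass the size rule. Mapre1, the founding member, had 9307 ± 450 in EB and 6045 ± 246 in ES, a log2 difference of 0.62, and Mapre3 was under the floor in both arrays. Map1b, known from growing axons, had -0.52, Map1s 0.17, and both probes for Map2, a protein of dendrites, were under the floor in both arrays. Nes, the intermediate filament of neural progenitors, had 416 ± 29.2 in EB and 415 ± 29.8 in ES.

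**Figure D4:**
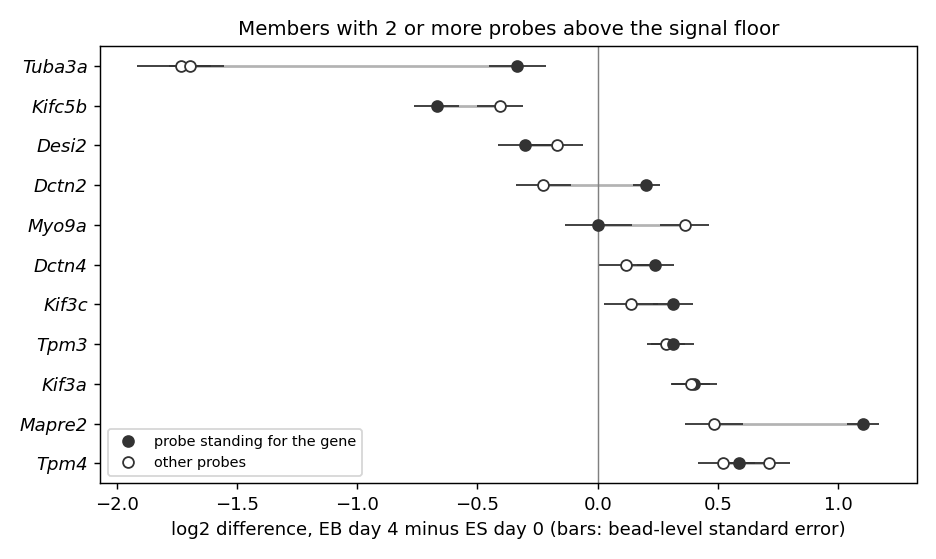
Log2 difference, EB minus ES (x axis), of every probe above the signal floor in at least 1 array, for the 11 members with 2 or more such probes, with bead-level standard errors. Filled points are the probes standing for the gene. Probes share their sign in 10 of 11 genes, Dctn2 is the exception, and the 3 probes of Tuba3a span 1.40.

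Probes of 1 gene mostly gave like values. Of 20 members with 2 or more probes 11 had at least 2 above the floor in at least 1 array, 10 of the 11 shared 1 sign, and in 9 the probes lay within 0.5 of each other. The exceptions in size were Tuba3a and Mapre2. A further 9 genes had at most 1 probe above the floor, so the second was uninformative.

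Regulators of the cytoskeleton that the stems do not take were read from a list of 83 genes, of which 48 were measured and 41 detected. None passed the size rule upward and 3 did downward (7.32%, against 3.99% of all detected named genes), and the list median was -0.11. Enah, which keeps actin filaments growing at the cell edge, had 1309 in EB and 4418 in ES, 3.37-fold lower. A second probe for Enah was under the floor in EB (182.5) and had 371 in ES, at least 1.61-fold lower. Lasp1, an actin-binding protein of focal adhesions, had 1683 in EB and 3771 in ES, 2.24-fold lower, and its second probe gave -0.87. Map7, a microtubule-binding protein of epithelia, was at least 2.29-fold lower, with an EB signal under the floor. Profilin 1 (Pfn1, log2 difference of 0.22), Rhoa (-0.15), Cdc42 (0.20) and Rock1 (-0.07) lay near 0.

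The marker lists place these values. All 7 measured pluripotency markers were lower in EB by the size rule, with summed signals of 4440 in EB and 42361 in ES. Among all detected named genes 3.99% were lower, which is also the share to set beside the fibroblast and neuron genes below. Of 4 measured red blood cell genes 3 were higher, and of 2 primitive endoderm genes 1 was, against 2.78% of all detected named genes. The ES signals of all these higher genes were under the floor. Hba-x was at least 3.26-fold and Hba-a1 at least 2.23-fold higher. For Nfe2 (at least 1.82-fold) and Gata4 (at least 1.97-fold) the floor leaves the 2-fold size unsettled. Of 6 fibroblast genes Col1a1 was lower and the other 5 were under the floor in both arrays (summed signals of 1756 in EB and 3426 in ES). Of 4 neuron genes Gap43 was lower, Dcx and Map2 were under the floor in both arrays and Tubb3 was under it in EB (1090 in EB and 2550 in ES). The smooth muscle gene Cnn1 was under the floor in both arrays. The part of any cell type in the differences of Acta2, Tubb2b, Actn3 or Myl7 was not tested.

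**Figure D5:**
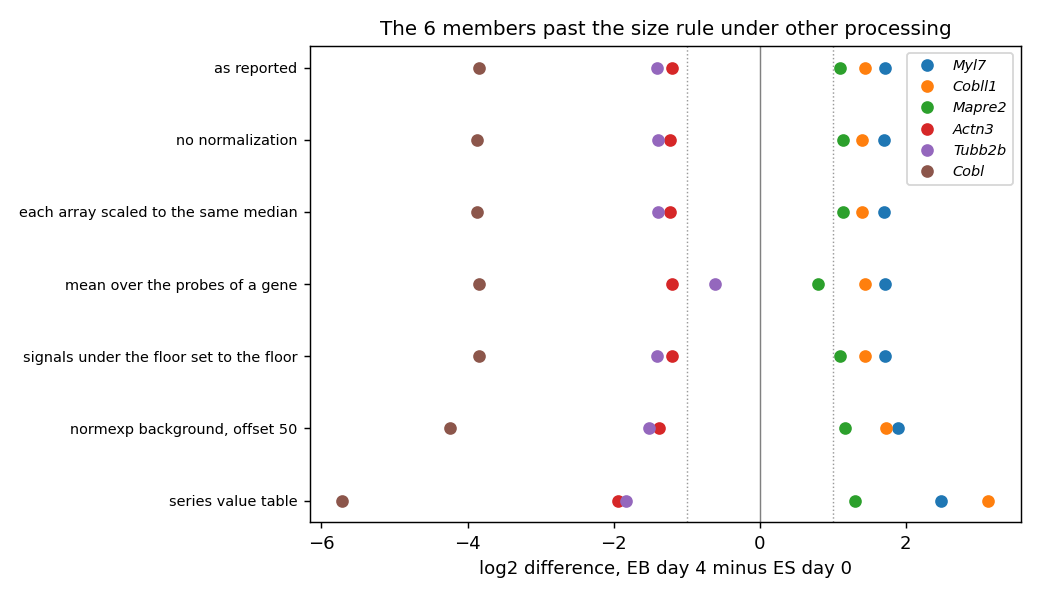
Log2 difference, EB minus ES (x axis), of the 6 members past the size rule as reported and under 6 other ways of processing (rows). All 6 keep their sign in every row, though the value table, normexp and floor rows could not have turned one. The value table spreads them most (Cobl -5.71, Cobll1 3.13). With the mean over probes Tubb2b (-0.61) and Mapre2 (0.79) fall inside the dotted 2-fold lines.

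The processing moved the number of members past the rule more than their direction. With the authors' processed values 17 members passed, 5 higher and 12 lower, and these included the 6 named above. The share past the rule over all detected named genes is also larger there, 21.6%, and ratios of dim signals are larger in that table. Members that passed there on the lower side included Acta2, Diaph1, Myo5c, Myh7, Tuba4a, Kifc2 and Kifc3, most of them with an EB signal next to or under the floor.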

How the data were processed

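The deposited intensity is the average over the beads of a probe. Per the file headers it came from BeadStudio 2.3.41 and was not normalized. RMA and limma appear beside BeadStudio 2 in the submitters' processing notes, with no role given. The deposited bead counts had medians of 37 in EB and 38 in ES. The deposited detection score is a fraction from 0 to 1, found in the EB file alone. The deposited bead spread was read as a standard error of the mean, since its slope on bead number, on log scales, was -0.47 in EB and -0.44 in ES for signals of at least 1000. How the authors made the series value table (linear intensity) is not stated. Its median is 16.7 in both arrays, against 173.3 in EB and 173.9 in ES in the sample files. Bright values lie below the normalized signals used here by a similar amount. Actb in EB has 31691.3 there against 31873.9 here, and Arpc1b in EB 1870.6 against 2053.2. Taking such an amount off enlarges the ratios of dim signals most.

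Here the deposited signals were quantile normalized across the 2 arrays, no background was subtracted, and log2 was taken. A probe counted as detected at an EB score above 0.99 or an ES signal above that array's median of 173.9. The score limit sets the signal floor of 230.0, and a ratio against a signal under it is given as "at least". Names came from zero-padded NCBI Gene numbers in the target identifiers, looked up in RefSeq's gene table of GRCm38.p6. Of 11857 such probes 9796 (82.6%) matched, against 41.1% with the numbers shifted by 7. The brightest probe stood for each gene. Normalization and size rule were tried on simulated arrays, with known fold changes on probes well above the floor and bead-level noise alone. That trial does not cover dim probes or variation between samples. Members named in the text are those past the size rule, the 3 brightest of each class, those with discordant probes and a preset group. Other members the text names were chosen after their values were seen. Members and lists were chosen with earlier results of these data known. Tools were Python 3.11.15, numpy 2.4.6, pandas 2.3.3, scipy 1.17.1, R 4.3.3 and limma 3.58.1 (normexp, offset 50). The number of arrays limits the precision.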

Additional observations from a re-analysis of the deposited data

Results flagged for a closer look

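A probe outside the comparison, which names Actb by its RefSeq accession, carried a signal of 22476.5 in EB and 23690 in ES, far above the floor of 230.0. It is shown because it measures a member by a second route. Its log2 difference of -0.08 (bead-level standard error 0.06) and that of the probe read by gene number (0.04) have opposite signs and both lie near 0.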

How the results depend on the processing

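No paired analysis was possible because there is 1 EB sample and 1 ES sample, and neither could be left out. The count of 6 members past the size rule was 17 in the series value table (5 higher, 12 lower), 1 at a log2 limit of 2 and 19 at a 1.5-fold limit (6 higher, 13 lower), and 5 to 8 under the other alternatives. With the mean over the probes of a gene 4 of the 6 stayed. Tubb2b and Mapre2 dropped out and Tuba3a (-1.26) came in, and the means of Tubb2b and Tuba3a include signals under the floor. The count of 3 regulators was 8 in the value table (2 higher, 6 lower), by alternatives chosen after seeing the data. The median of the members ran from -0.03 to 0.07, so its sign is not fixed. Of 523 values of 63 members under 9 alternatives (some of the members added after seeing the data), 513 kept their sign. The other 10, which turned or were 0, belonged to Actg1, Dctn2, Diaph2, Mapre3, Myh6, Myo9a and Nes. Most of the agreement in sign was fixed in advance. The detection settings leave a value as it is, and the value table and normexp keep the order of the signals. Setting signals to the floor can only give 0. No normalization, scaling to the same median and, for genes with several probes, the mean over probes could turn a sign. Signals near or under the floor limit Cobl, Cobll1, Acta2, Myh7, Kifc2 and Kifc3.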
